A study of Mus musculus with 24 samples.

Results

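Genes of the heat shock protein families, 10 in all, were followed through a study of dietary methionine restriction (MR) in mouse liver. The genes were taken by symbol from the deposited count table of 15161 genes, and each symbol matched 1 row. They encode 7 proteins of the cytosol (Hspa8, Hspa1b, Hsph1, Dnajb1, Dnaja1, Hsp90aa1 and Hspb1) and 3 of mitochondria (Hspa9, Hspd1 and Hspe1). Livers were from 4-month-old males of the C57BL6/J strain, and RNA was measured by sequencing. The elemental MR group received 0.17% methionine in a diet whose protein was replaced by free amino acids, and the elemental control group received 0.86%. The oxidized casein MR group received 0.17% methionine with casein, the main milk protein, that had been oxidised, and the casein control group received 0.86% with casein. Each group held 6 libraries. The labels do not call the casein of the control diet oxidised, so with casein the effects of restriction and of oxidation cannot be told apart.

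Heat shock proteins are molecular chaperones, which bind unfolded or misfolded proteins and help them to fold, to cross membranes or to be degraded. In the cytosol the HSP70 proteins work in a cycle with J-proteins, which bring substrates and speed up ATP hydrolysis, and with exchange factors, which release the nucleotide. HSP90 receives clients from HSP70, and small heat shock proteins hold unfolded proteins without using ATP. In mitochondria, HSP70 pulls imported chains across the inner membrane, and the HSP60 and HSP10 chaperonin folds them in a closed chamber. Many of the cytosolic genes are induced by heat shock factor 1 (HSF1), which binds heat shock elements, and in liver the constitutive members serve the high rate of protein synthesis.

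Between 13.5 and 20.8 M reads were counted per library, and 13441 genes passed the filter on low counts, including all 10 members. The members together took 0.144 to 0.165% of the reads in elemental MR and 0.105 to 0.119% in elemental control. They took 0.168 to 0.199% in oxidized casein MR and 0.101 to 0.116% in casein control. The lowest count of any member in any library was 76 reads. Hepatocyte markers defined the tissue in every library, with a summed level of 93100 to 101000 CPM (counts scaled to library size) in elemental MR, against 116000 to 127000 CPM in elemental control. The sum was 67100 to 75600 CPM in oxidized casein MR, against 107000 to 124000 CPM in casein control. Of the 10 hepatocyte markers, 3 were lower with elemental MR and 10 with oxidized casein MR, so the share of reads left to other genes differed between the diets, and the part of this in the members' values was not tested. Of 12 Kupffer cell and macrophage markers and of 6 lymphocyte and neutrophil markers tested, 0 were called on either diet in edgeR. Among 5 cholangiocyte markers, 1 was lower with elemental MR and 3 with oxidized casein MR (2 without C_MR_3438, described next). Of 10 stellate cell and fibroblast markers, 2 were lower with elemental MR and 1 was higher with oxidized casein MR. Without C_MR_3438, 0 of these markers were higher and 1 was lower with oxidized casein MR. For 10 endothelial markers, 1 was higher with elemental MR and 1 lower with oxidized casein MR. Of 5 erythroid markers, 1 was lower on each diet. Over all genes, 6.78% were higher and 6.64% lower with elemental MR, and 10.6% and 12.7% with oxidized casein MR. One library stood apart before any result: C_MR_3438, of the oxidized casein MR group, held 2230 CPM of 12 skeletal muscle markers, against at most 80.3 CPM in the other 23 libraries. Its level of Acta1, the actin of skeletal muscle, was 644 CPM, against 19.8 CPM or less elsewhere. Without it, the same 9 members were called with oxidized casein MR, and the log2 fold change of Hspa1b, the member that moved most, was 0.92 (adjusted p = 0.0203) in place of 1.15. In whole liver, fewer cells of a type and less RNA per cell cannot be told apart. Nothing in the labels states that libraries came from separate mice, so p-values measure the spread between these libraries.

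The RefSeq promoter table (build GRCm38.p6, from 250 bases before to 50 after a start site) held 12 promoters of 7 members, and none of Hspa8, Hspa9 or Hsp90aa1. It was searched for heat shock elements, which are built of GAA units in alternating orientation. With the letters GAANNTTCNNGAA or TTCNNGAANNTTC, which are each other's reverse complement, 3 units in a row were found in 198 of 32851 promoters (0.603%). They were found in 4 of the 12 member promoters, those of Hspd1, Hspe1 and Hsph1. With 2 units (GAANNTTC or TTCNNGAA, each its own reverse complement, and contained in every match of 3 units), matches were in 15.1% of all promoters and in 7 of the 12. These 7 covered 6 of the 7 genes, all but Dnajb1. A match is a run of letters, not a known binding site. The stretches below were chosen because these genes differed most between diets among the cytosolic members with a promoter (Hspb1 and Hspa1b), or because 1 run lies before both genes of the chaperonin pair (Hspe1 and Hspd1). They are printed 5′ to 3′ on the strand of the gene, with the units in capitals.
Hspe1, chr1:55088053-55088082, plus strand, bases -95 to -66 from the start: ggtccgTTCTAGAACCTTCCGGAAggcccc
Hspd1, chr1:55088053-55088082, minus strand, bases -150 to -121 from the start: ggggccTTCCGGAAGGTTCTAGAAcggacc
Hspb1, chr5:135887779-135887859, plus strand, bases -140 to -60 from the start: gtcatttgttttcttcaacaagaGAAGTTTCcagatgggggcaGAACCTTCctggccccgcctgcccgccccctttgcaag
Hspa1b, chr17:34959298-34959378, minus strand, bases -140 to -60 from the start: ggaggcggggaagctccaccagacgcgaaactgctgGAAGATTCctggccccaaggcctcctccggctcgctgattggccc

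Hspd1 and Hspe1 are neighbours that are transcribed away from each other, and the first pair of lines is the same DNA read from either strand. Between their start sites at chr1:55087932 (Hspd1) and chr1:55088148 (Hspe1) lie 215 bases, which hold a single run of 4 units. A second Hspd1 start in the table, at chr1:55088243, lies beyond the Hspe1 start, and the annotation (GENCODE M21, same build) places the run in the first, untranslated exon of an Hspd1 transcript from there. The Hspb1 stretch held 2 separate matches of 2 units and the Hspa1b stretch held 1, neither within an annotated exon. The 3-unit match of Hsph1 lay after its start sites.

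Most of the 10 genes had a log2 fold change above 0 on both MR diets, though not all of these passed the test on both. With elemental MR, 6 of the 10 were higher and 1 was lower at an adjusted p under 0.05 (edgeR's quasi-likelihood test, Benjamini-Hochberg adjustment over 13441 genes), while 6.78% of all genes tested were higher and 6.64% lower. With oxidized casein MR, 8 were higher and 1 was lower, beside 10.6% higher and 12.7% lower among all genes. The median log2 fold change of the members was 0.33 with elemental MR and 0.53 with oxidized casein MR, against -0.0028 and 0.00973 for all genes tested. By size, Hspa1b (0.84, which did not pass the test) and Hspb1 (0.82) led with elemental MR, and Hspb1 (2.01), Hspa1b (1.15) and Hsp90aa1 (0.79) with oxidized casein MR. Dnaja1 was the only member below 0 in either comparison.

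**Figure D1:**
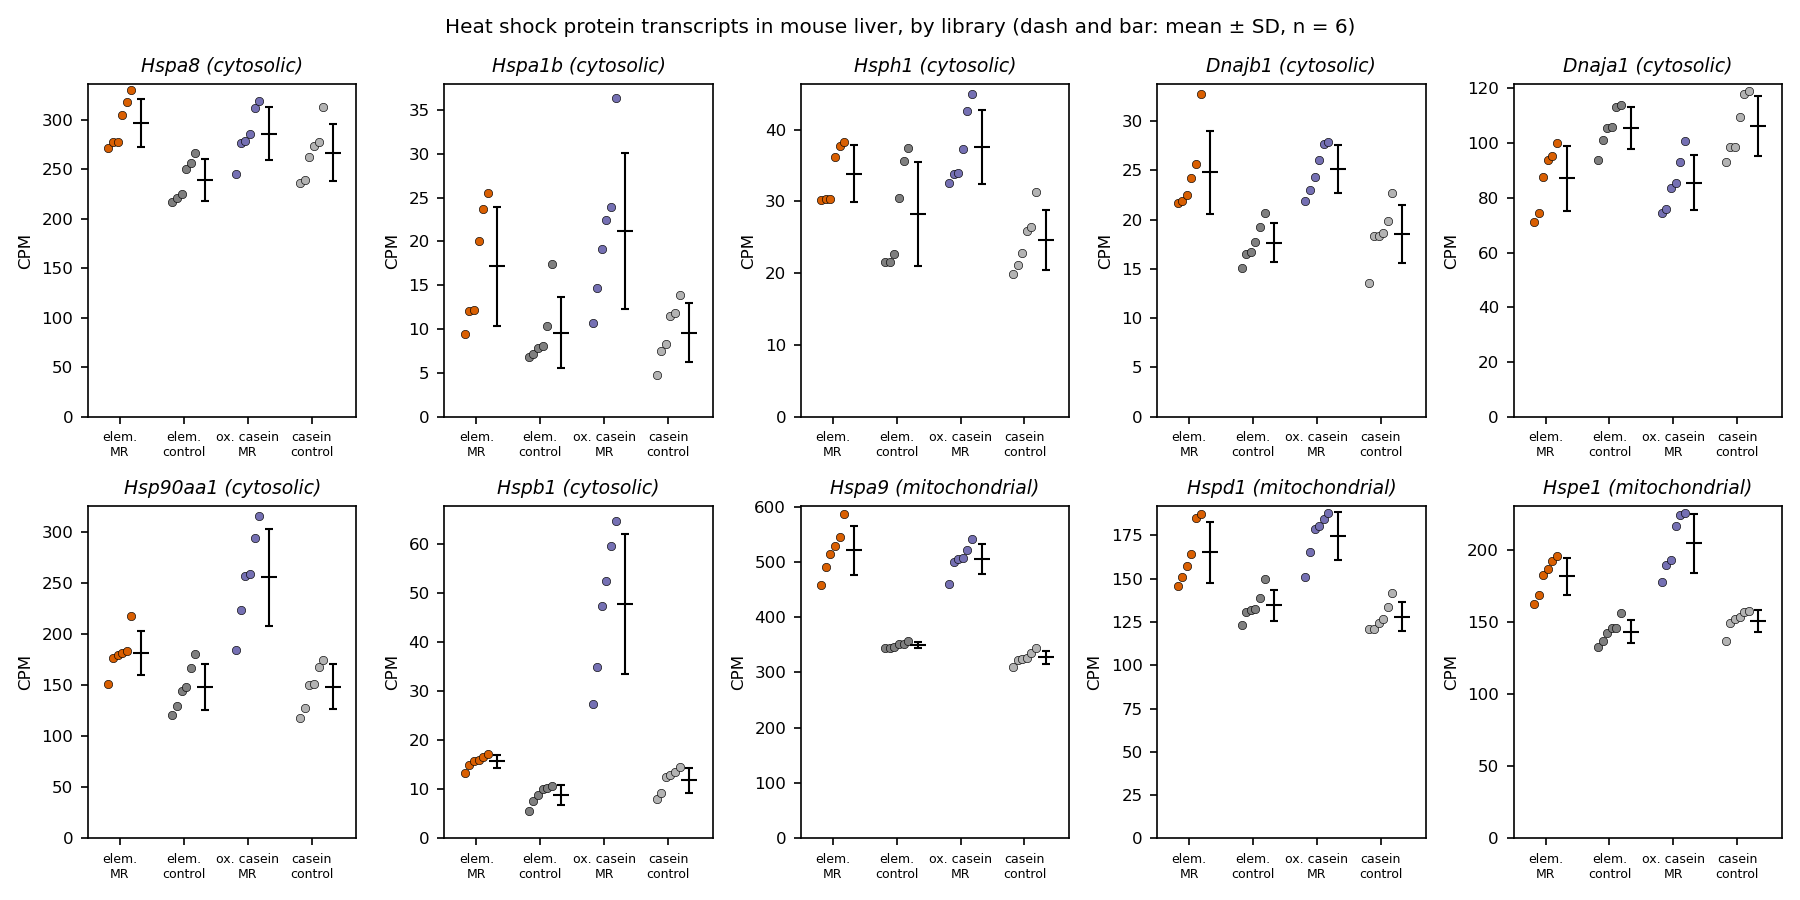
CPM of the 10 heat shock protein genes in each library (points) with the mean (dash) and SD (bar) of each diet group, on an axis of its own for each gene. The 6 oxidized casein MR libraries of Hspb1, at 27.4 to 64.7 CPM, lie above every other library, and those of Hspa9 on both MR diets lie above every control library.

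**Figure D2:**
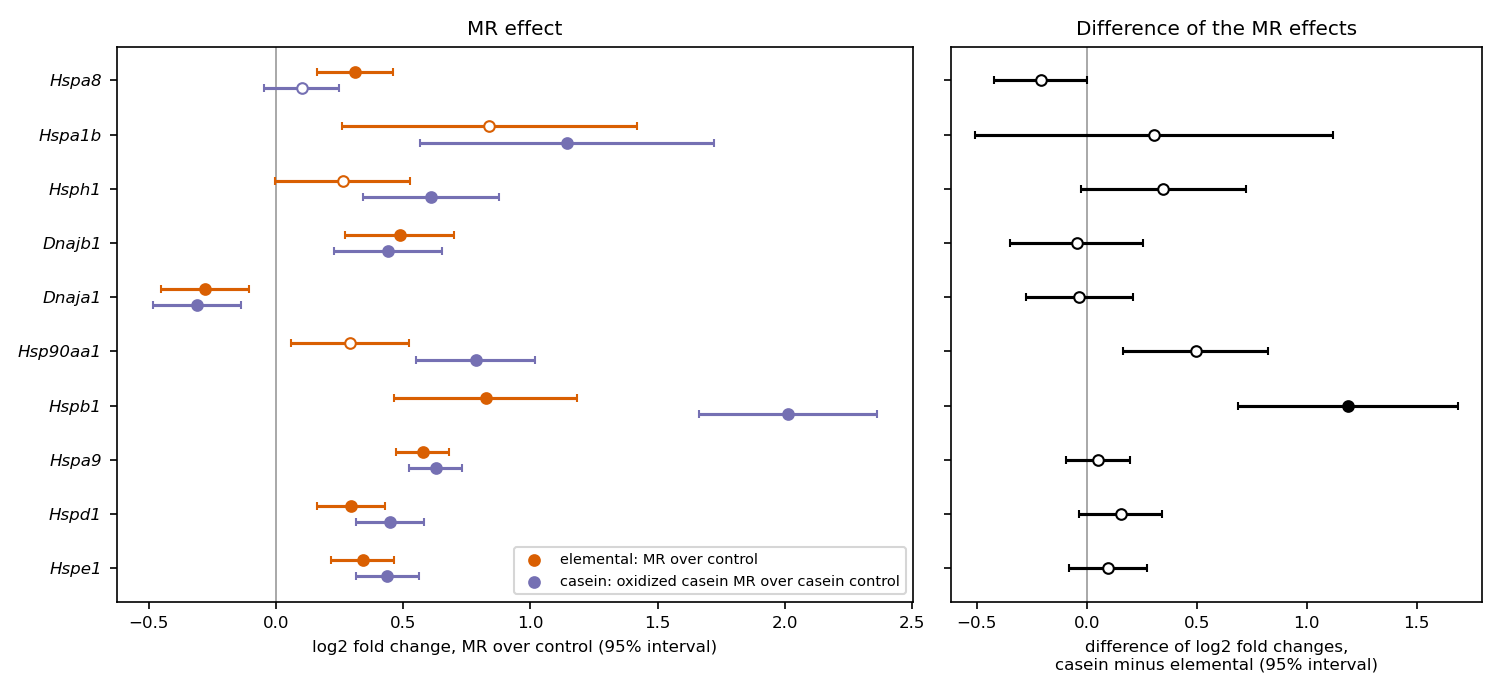
Log2 fold change with its 95% interval for the 10 genes in MR against control with each protein source, and in the difference of these effects. Filled points passed the test. The 3 mitochondrial genes, Hspb1 and Dnajb1 are filled right of 0 on both diets, Dnaja1 is filled left of 0, and Hspb1 (1.19) is the filled point of the difference.

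The 3 mitochondrial members rose on both diets. Hspa9 (ENSMUSG00000024359), the mitochondrial HSP70 that drives import, was measured at 458, 521 and 587 CPM (lowest, median and highest library) in elemental MR and at 344, 349 and 357 CPM in elemental control. It was at 459.6, 506.5 and 542 CPM in oxidized casein MR and at 311, 325 and 344 CPM in casein control. All 12 MR libraries lay above all 12 control libraries, and the control libraries were tight, with a coefficient of variation of 1.5% in elemental control. Its log2 fold change was 0.58 ± 0.05 with elemental MR (SE; adjusted p = 2.13e-08) and 0.63 ± 0.05 with oxidized casein MR (adjusted p = 1.07e-09). By p it ranked 23rd of all genes tested with elemental MR, although the change was only 1.49-fold.

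Hspd1 (ENSMUSG00000025980), the HSP60 subunit of the mitochondrial chaperonin, was at 146, 161 and 187.5 CPM in elemental MR and at 123.5, 132.5 and 150.1 CPM in elemental control. It was at 151, 179.7 and 188 CPM in oxidized casein MR and at 121, 125 and 142 CPM in casein control. The casein groups did not overlap, and 5 of the 6 elemental MR libraries lay above every elemental control library. The log2 fold change was 0.29 ± 0.07 with elemental MR (adjusted p = 0.00395) and 0.45 ± 0.07 with oxidized casein MR (adjusted p = 1.46e-05).

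Hspe1 (ENSMUSG00000073676), the HSP10 lid of the same chamber, was at 163, 185 and 196 CPM in elemental MR and at 132, 144 and 156 CPM in elemental control. With casein it was at 177, 205 and 226 CPM in oxidized casein MR and at 137, 153 and 157.5 CPM in casein control. Neither pair of groups overlapped. It changed by 0.34 ± 0.06 with elemental MR (adjusted p = 0.000529) and by 0.44 ± 0.06 with oxidized casein MR (adjusted p = 7.58e-06), within 1 SE of Hspd1 on each diet. Processed copies of both chaperonin genes exist in the mouse genome, and how reads shared with them were counted is not given in the sources used here.

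Hspb1 (ENSMUSG00000004951), a small heat shock protein that holds unfolded proteins and binds actin, had the widest span among the members. It was at 13.3, 15.9 and 17.15 CPM in elemental MR, against 5.485, 9.50 and 10.7 CPM in elemental control. In oxidized casein MR it was at 27.4, 49.8 and 64.7 CPM, against 8.10, 12.7 and 14.6 CPM in casein control. Neither MR group overlapped its control, and the lowest oxidized casein MR library was above the highest elemental MR library. The log2 fold change was 0.82 ± 0.18 with elemental MR (adjusted p = 0.00286), which is 1.77-fold. With oxidized casein MR it was 2.01 ± 0.18 (adjusted p = 2.71e-09), which is 4.03-fold, and it was 1.98 (adjusted p = 1.12e-08) without C_MR_3438, the library with muscle transcripts.

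Hsp90aa1 (ENSMUSG00000021270), the stress-inducible cytosolic HSP90, was at 151, 179.9 and 218 CPM in elemental MR and at 121, 146 and 181 CPM in elemental control. Those groups overlapped, with 3 of 6 MR libraries above every control library, and the log2 fold change of 0.29 ± 0.12 did not pass the test (adjusted p = 0.111). In oxidized casein MR it was at 184, 258 and 315 CPM, against 118, 150.4 and 174 CPM in casein control. There the groups did not overlap, and Hsp90aa1 rose by 0.79 ± 0.12 (adjusted p = 1.33e-05), or by 0.78 (adjusted p = 3.85e-05) without C_MR_3438. Reads that match both Hsp90aa1 and its close paralog Hsp90ab1 could have been split between them.

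Of the HSP70 proteins of the cytosol, Hspa8 (ENSMUSG00000015656), the constitutive HSC70, was at 271, 291.5 and 330 CPM in elemental MR and at 217, 237 and 267 CPM in elemental control. The groups did not overlap, and the log2 fold change was 0.31 ± 0.08 (adjusted p = 0.00626). The oxidized casein MR libraries were at 245, 282 and 319 CPM and the casein control libraries at 236, 268 and 313 CPM. These overlapped in all but 1 MR library, and the change of 0.10 ± 0.08 did not pass the test (adjusted p = 0.389). Hspa8 was thus the only member that passed with elemental MR and not with oxidized casein MR, and the difference between the diets itself did not pass (-0.21 ± 0.11, adjusted p = 0.441).

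Hspa1b (ENSMUSG00000090877), the heat-inducible HSP70, was scattered within every group, with a coefficient of variation of 35 to 42%. It was at 9.46, 16.15 and 25.6 CPM in elemental MR and at 6.80, 7.93 and 17.4 CPM in elemental control, where the groups overlapped. The log2 fold change of 0.84 ± 0.30 just missed the threshold (adjusted p = 0.0592), and it passed in 7 of the 34 alternatives tried. The oxidized casein MR libraries were at 10.7, 20.8 and 36.3 CPM, against 4.73, 9.92 and 13.85 CPM in casein control, with 5 of 6 MR libraries above every control library. The log2 fold change there was 1.15 ± 0.29 (adjusted p = 0.00475). Its neighbour Hspa1a encodes a nearly identical protein and was listed at group means of 0.988 to 1.40 CPM, so reads of the pair could have been assigned unevenly.

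Hsph1 (ENSMUSG00000029657), the HSP110 exchange factor of HSP70, was at 30.2, 33.3 and 38.3 CPM in elemental MR and at 21.6, 26.6 and 37.45 CPM in elemental control. These overlapped, and the change of 0.26 ± 0.14 did not pass (adjusted p = 0.224). In oxidized casein MR it was at 32.5, 35.6 and 45.04 CPM, above every casein control library at 19.9, 24.3 and 31.4 CPM, and it rose by 0.61 ± 0.14 (adjusted p = 0.00133).

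The J-proteins went in opposite directions. Dnajb1 (ENSMUSG00000005483), the heat-inducible HSP40, was at 21.7, 23.3 and 32.7 CPM in elemental MR, above every elemental control library at 15.1, 17.2 and 20.6 CPM. It was at 21.9, 25.2 and 27.85 CPM in oxidized casein MR and at 13.6, 18.5 and 22.7 CPM in casein control, with 5 of 6 MR libraries above every control library. It rose by 0.49 ± 0.11 with elemental MR (adjusted p = 0.00292) and by 0.44 ± 0.11 with oxidized casein MR (adjusted p = 0.00332).

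Dnaja1 (ENSMUSG00000028410), a J-protein that stimulates HSC70 and takes part in mitochondrial import, was at 71.2, 90.7 and 100.2 CPM in elemental MR and at 93.9, 105.6 and 114 CPM in elemental control. With casein it was at 74.3, 84.5 and 100.8 CPM in oxidized casein MR and at 93.1, 104 and 119 CPM in casein control. Of the 6 MR libraries, 4 lay below every control library with elemental amino acids and 5 with casein. The log2 fold change was -0.28 ± 0.09 with elemental MR (adjusted p = 0.0355) and -0.31 ± 0.09 with oxidized casein MR (adjusted p = 0.01). The elemental call is a weak one, since leaving out single libraries ended it in 7 of 24 fits, with an adjusted p of up to 0.102. The casein call was kept in all 24.

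Counting members whose groups did not overlap in CPM gave 5 higher with elemental MR (Hspa8, Dnajb1, Hspb1, Hspa9 and Hspe1), beside 3.24% of all genes tested. It gave 6 higher with oxidized casein MR (Hsph1, Hsp90aa1, Hspb1, Hspa9, Hspd1 and Hspe1), beside 4.82% of all genes. Hspb1, Hspa9 and Hspe1 were in both sets.

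Levels of different genes were set side by side as CPM per kilobase of the principal annotated transcript. In elemental control, Hspe1 had the highest level (185 ± 10.8 CPM per kb), followed by Hspa9 (114.5 ± 1.72) and Hspa8 (99.95 ± 8.77; SD, n = 6). Hspd1 (55.6 ± 3.72) and Hsp90aa1 (45.2 ± 6.86) came next, then Dnaja1 (18.8 ± 1.35), Hspb1 (9.77 ± 2.21), Hsph1 (7.43 ± 1.91) and Dnajb1 (5.90 ± 0.668), and Hspa1b was lowest (3.42 ± 1.44). Among neighbours in that order, the ranges of mean ± SD overlapped for Hspd1 with Hsp90aa1, Hspb1 with Hsph1, and Hsph1 with Dnajb1. In oxidized casein MR, Hspb1 stood at 52.8 ± 15.9 CPM per kb, above Dnaja1 at 15.2 ± 1.80, and on the level at which Hspd1 stood on the casein control diet (52.85 ± 3.40).

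The interaction asks whether oxidized casein MR changed a gene, relative to casein control, by the same amount as elemental MR did relative to elemental control. It was tested as the casein effect minus the elemental effect, and the casein effect includes any effect of oxidation. Hspb1 was the 1 member that passed, at 1.19 ± 0.25 (95% interval 0.69 to 1.69, adjusted p = 0.00835), while 0.781% of all genes tested were higher and 1.56% lower in this difference. The value was 1.16 (adjusted p = 0.0151) without C_MR_3438. Hsp90aa1 came second at 0.50 ± 0.17 (interval 0.17 to 0.82), which did not pass after adjustment (adjusted p = 0.147). Hsph1 differed by 0.35 ± 0.19 (interval -0.03 to 0.72). For the mitochondrial members the intervals were narrow, from -0.09 to 0.20 for Hspa9, from -0.04 to 0.34 for Hspd1 and from -0.08 to 0.27 for Hspe1. For Dnajb1 the interval was -0.35 to 0.25 and for Dnaja1 -0.28 to 0.21. Hspa1b, with its scatter, gave -0.51 to 1.12, which bounds the difference only loosely.

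Set directly against each other, the MR diets differed in 2 members, while 2.72% of all genes tested were higher and 3.78% lower. Hspb1 was higher in oxidized casein MR than in elemental MR by 1.61 ± 0.17 (adjusted p = 7.06e-07), which is 3.05-fold. Hsp90aa1 was higher by 0.49 ± 0.12 (adjusted p = 0.00921), with 5 of 6 oxidized casein MR libraries above every elemental MR library. Hspb1 was also the member whose MR groups did not overlap, beside 1.58% of all genes tested. Between the control diets, 0 members passed edgeR's quasi-likelihood test, beside 0.0298% of all genes higher and 0.0744% lower in casein control. Hspb1 (0.42 ± 0.19, adjusted p = 0.382) and Hspa8 had an unadjusted p under 0.05 there, and no alternative tried, DESeq2 and limma-voom included, called a member. Casein control lay wholly above elemental control in 0 members, beside 0.327% of all genes.

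The library C_MR_3431 of the oxidized casein MR group had the lowest Hspb1 (27.4 CPM) and Hsp90aa1 (184 CPM) of its group. It was the lowest of the group for Hspd1 (151 CPM), Hspe1 (177 CPM) and Dnaja1 (74.3 CPM) too, but not for the other members. It also had the group's highest summed level of Kupffer cell and macrophage markers (994 CPM, against 684 CPM or less in the others) and of erythroid markers (7340 CPM, against 3800 CPM or less). The same library was highest for endothelial markers (391 CPM, against 352 CPM or less), for stellate cell and fibroblast markers (493 CPM, against 410 CPM or less) and for lymphocyte and neutrophil markers (28.4 CPM, against 21.2 CPM or less). The part of these markers in its values was not tested. Without it, the difference between the MR effects was 1.30 for Hspb1 (adjusted p = 0.00129), and that of Hsp90aa1, 0.57, passed (adjusted p = 0.0472). Hspe1 was then also higher in oxidized casein MR than in elemental MR, by 0.21 (adjusted p = 0.0442), where the value over all libraries was 0.17 ± 0.06 (adjusted p = 0.113). This library was singled out after its values were seen.

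The members were next compared with each other across libraries of the same diet, by removing each group's mean from log2 CPM and correlating the 24 remainders. Of the 45 pairs, 2 passed a permutation test within diet groups with adjustment over the pairs, and both were of cytosolic genes. Hspa1b and Dnajb1, both known as heat-inducible, varied together most (Pearson r = 0.752, permutation p = 6e-05, adjusted p = 0.0027, Spearman rho = 0.757, permutation p = 1e-04, adjusted p = 0.0045). Within groups, r was 0.84 in elemental MR, 0.585 in elemental control, 0.913 in oxidized casein MR and 0.721 in casein control. Leaving out the 2 libraries farthest from the median of Hspa1b gave r = 0.725 (permutation p = 0.00075). Hsph1 and Hsp90aa1 formed the second pair (r = 0.64, permutation p = 0.00175, adjusted p = 0.0394, rho = 0.632, permutation p = 0.00217, adjusted p = 0.0488). Without the 2 farthest libraries r was 0.661 (permutation p = 0.00225), and it lay between 0.548 and 0.714 in the 4 groups.

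Hsp90aa1 and Hspb1 had r = 0.652 (adjusted permutation p = 0.0507) and rho = 0.567 (adjusted permutation p = 0.144), which did not pass. The 3 mitochondrial pairs had r from 0.46 to 0.534, all positive, and 0 of them passed. Hspd1 and Hspe1, the neighbouring genes of the chaperonin, had r = 0.534 (adjusted permutation p = 0.15) and rho = 0.442 (adjusted permutation p = 0.23). The 21 pairs of 1 cytosolic with 1 mitochondrial gene had a median r of 0.0361, the 21 cytosolic pairs 0.351 and the mitochondrial pairs 0.505. All libraries share the scaling of their own depth and make-up between genes, so these medians are a description.

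**Figure D3:**
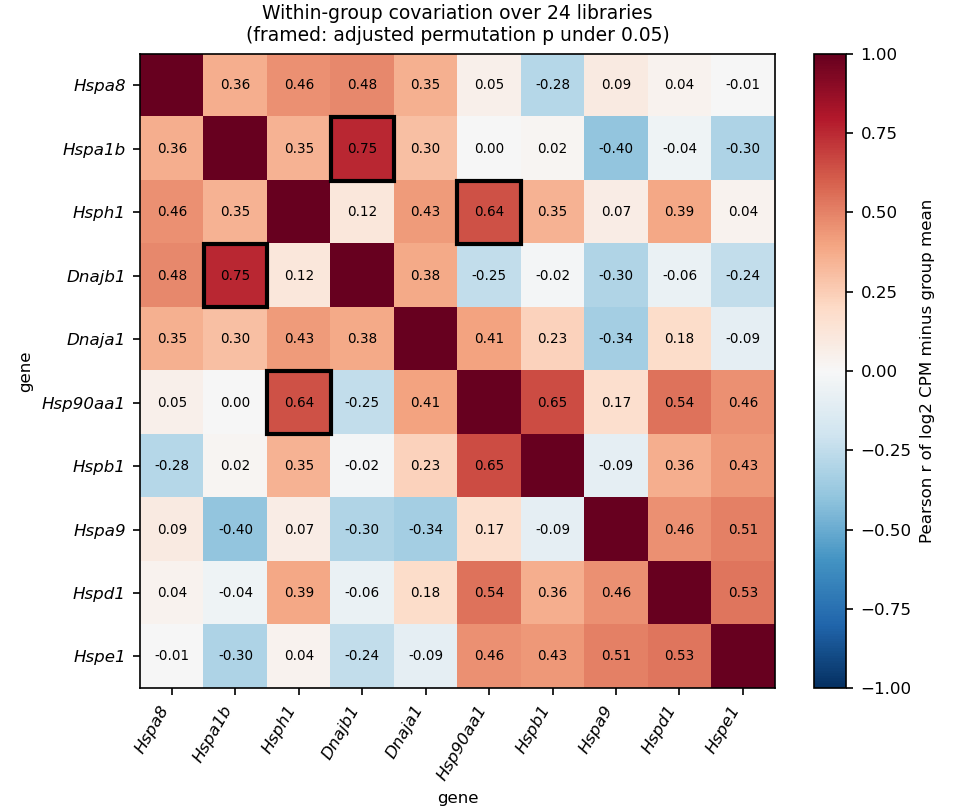
Pearson r of log2 CPM between the 10 genes over 24 libraries after removal of the diet group means, as a heat map with r in each cell. Hspa1b with Dnajb1 (0.752) and Hsph1 with Hsp90aa1 (0.64) are the pairs that passed the permutation test, and most cells between mitochondrial and cytosolic genes are pale.

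Among 10066 genes compared in the same way, those most like a member were listed without a test. Sac3d1 (r = 0.768) came first for Hspa1b and Dnajb1 was second, the one place where another member was among the top 3. For Hsp90aa1 the genes were Esd (0.812), Fam92a (0.8) and Stip1 (0.768), the last of which encodes the adaptor that passes clients from HSP70 to HSP90. For Hspb1 they included Hsd17b4 (0.818) and Akr1a1 (0.767). Hspa9 was most like App by r (0.804), though Spearman rho was only 0.562. Hspd1 was most like Psmd14 (0.807, rho = 0.803), a proteasome subunit, and Hspe1 most like Prdx3 (0.794, rho = 0.773), the mitochondrial peroxiredoxin. Arid4b led for Dnajb1 (0.8), N4bp2 for Dnaja1 (0.803), Syvn1 for Hsph1 (0.706) and Slc25a51 for Hspa8 (0.748).

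The rest of the chaperone network was read from 9 lists of 108 genes in all, of which 99 were tested. With elemental MR 17 were higher and 2 lower, while 6.78% of all genes tested were higher and 6.64% lower. With oxidized casein MR 35 were higher and 3 lower (32 and 4 without C_MR_3438), while among all genes 10.6% were higher and 12.7% lower, so calls were more frequent on that diet over all genes too. In the difference of the MR effects, Cct3 alone was called (0.30 ± 0.08, adjusted p = 0.0459), and 0 were without C_MR_3438. Between the control diets edgeR called 0 in any list, DESeq2's Wald test called 1 and limma-voom 0, and the number with an unadjusted p under 0.05 was 0 to 4 per list.

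Of 16 tested genes of HSP90 and its co-chaperones, 3 were higher with elemental MR and 9 with oxidized casein MR, and 0 were lower on either diet. Among all genes tested, 6.78% were higher and 6.64% lower with elemental MR, and 10.6% and 12.7% with oxidized casein MR. Hsp90ab1, the constitutive HSP90, averaged 1920 ± 139 CPM in elemental MR and 1440 ± 54.2 CPM in elemental control (SD, n = 6 each). It averaged 2084 ± 200 CPM in oxidized casein MR and 1578 ± 133 CPM in casein control. Its log2 fold changes were 0.42 ± 0.07 (adjusted p = 9.21e-05) and 0.40 ± 0.07 (adjusted p = 4.65e-05). Ptges3, the p23 co-chaperone (0.28 and 0.32), and Ahsa1, which activates the HSP90 ATPase (0.24 and 0.43), rose on both diets. Stip1 was called with oxidized casein MR (0.32 ± 0.08, adjusted p = 0.00311), and its value with elemental MR was 0.07 (adjusted p = 0.648). Cacybp (0.48), Sugt1 (0.19), Fkbp5 (0.68), Chordc1 (0.26) and Ppp5c (0.25) were the other calls with oxidized casein MR. Without C_MR_3438, edgeR called 8 listed genes higher on that diet, and Ppp5c lost its call (0.22, adjusted p = 0.0984).

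Among 22 genes listed with the cytosolic HSP70 system, 2 were higher and 1 lower with elemental MR, and 5 were higher and 1 lower with oxidized casein MR. Over all genes tested, 10.6% were higher and 12.7% lower with oxidized casein MR. Without C_MR_3438, 4 listed genes were higher and 2 lower on that diet. The elemental counts lie near the shares of all genes (6.78% higher and 6.64% lower) and are no result about the list. The J-protein Dnaja2 rose by 0.21 and 0.28, and St13, the Hip co-chaperone, by 0.19 on either diet. Hspa4l, an HSP110 relative, rose with oxidized casein MR (0.43). The 1 lower gene on each diet over all libraries was Hspa13, a microsomal HSP70 relative and not a cytosolic one. It fell by 0.54 ± 0.10 (adjusted p = 0.000328) with elemental MR and by 0.48 ± 0.10 (adjusted p = 0.000501) with oxidized casein MR. Bag3, a heat-inducible partner of HSP70, had values of 0.06 (adjusted p = 0.834) and 0.01 (adjusted p = 0.97).

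Of 14 genes of the cytosolic chaperonin TRiC and prefoldin, 4 were higher with elemental MR and 7 with oxidized casein MR. Among all genes tested, 6.78% and 10.6% were higher on these diets. Cct4 (0.29 and 0.33), Cct6a (0.23 and 0.27) and Cct7 (0.24 and 0.39) were called on both diets. Tcp1 (0.23) was called with elemental MR, and Cct3 (0.44), Cct5 (0.34), Cct2 (0.19) and Vbp1 (0.28) with oxidized casein MR.

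Of 20 mitochondrial chaperones and proteases, 6 were higher with elemental MR and 9 with oxidized casein MR, where 1 was lower. Among all genes tested, 6.78% were higher with elemental MR, and 10.6% were higher and 12.7% lower with oxidized casein MR. Lonp1, the matrix protease, averaged 105 ± 3.95 CPM in elemental MR and 87.9 ± 3.02 CPM in elemental control, and 115 ± 4.91 CPM in oxidized casein MR and 87.2 ± 4.50 CPM in casein control. It rose by 0.25 ± 0.05 (adjusted p = 0.000403) and 0.40 ± 0.05 (adjusted p = 2.62e-07). Clpb, a disaggregase (0.42 and 0.35), Grpel2, an exchange factor of mitochondrial HSP70 (0.48 and 0.58), Dnaja3, its J-protein (0.29 and 0.33), Trap1, the mitochondrial HSP90 (0.14 and 0.29), and Afg3l2, a protease of the inner membrane (0.20 and 0.16), rose on both diets. Dnajc19, a J-protein of the import motor, fell by 0.38 ± 0.07 with oxidized casein MR (adjusted p = 0.000169). Atf5, a transcription factor linked to the mitochondrial unfolded protein response, averaged 687 ± 103 CPM in elemental MR and 365 ± 54.9 CPM in elemental control. With casein it averaged 547.5 ± 85.4 CPM in oxidized casein MR and 277 ± 35.4 CPM in casein control. It was the 1 of the 4 listed regulators of that response to be called, at 0.91 ± 0.11 (adjusted p = 2.99e-06) and 0.98 ± 0.11 (adjusted p = 2.26e-07). This count stands beside 6.78% and 10.6% of all genes tested that were higher on these diets. Atf4 was at 0.19 (adjusted p = 0.194) and 0.16 (adjusted p = 0.253), and Cebpb at -0.16 (adjusted p = 0.405) and 0.14 (adjusted p = 0.419).

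Of 4 tested genes listed by name with the small heat shock proteins, Hspb1 aside, 0 were called with elemental MR by edgeR, DESeq2 or limma-voom. Among them 0 had an unadjusted p under 0.05 in edgeR, and not every gene of that name need belong to the family. With oxidized casein MR edgeR called 2 higher, Hspb6 (0.76 ± 0.22, adjusted p = 0.0115) and Cryab (1.59 ± 0.50, adjusted p = 0.0218). This stands beside 10.6% of all genes tested, and DESeq2 called 1 of the 4 and limma-voom 0. Hspb6 and Cryab are abundant in muscle, and C_MR_3438 is the library with muscle transcripts. Without it, Hspb6 was at 0.29 and stayed called (adjusted p = 0.00848), while Cryab was at 0.03 and lost the call (adjusted p = 0.919). The part of muscle in these values was not tested. Hspb8 was at 0.09 with elemental MR and -0.07 with oxidized casein MR, and Hspb11 at 0.19 and 0.13, with adjusted p of 0.39 or more.

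Of the heat shock factor list, Hsf1 had values of 0.12 (adjusted p = 0.667) with elemental MR and 0.09 (adjusted p = 0.73) with oxidized casein MR, and Hsbp1, which binds the factor, of -0.06 and -0.05. Hsf2 rose by 0.39 ± 0.10 (adjusted p = 0.0133) and 0.32 ± 0.10 (adjusted p = 0.0274), and Hsbp1l1, named for its likeness to the HSF binding protein, fell by 1.79 ± 0.24 (adjusted p = 6.55e-06) and 1.49 ± 0.23 (adjusted p = 1.49e-05). Of 11 other genes that HSF1 is known to induce on heat shock, 0 were called on either diet by edgeR, DESeq2 or limma-voom. Over all genes edgeR called 6.78% higher and 6.64% lower with elemental MR, and 10.6% and 12.7% with oxidized casein MR. Beside these shares, a count of 0 among 11 is no result about these genes. An unadjusted p under 0.05 was reached by 1 with elemental MR and 0 with oxidized casein MR, and the 1 was the metallothionein Mt1. Mt1 was at 0.91 (adjusted p = 0.125) with elemental MR and 0.71 (adjusted p = 0.198) with oxidized casein MR, and Mt2, its neighbour, at 0.24 and 0.67. The ubiquitin gene Ubb was at 0.12 and 0.09, Rbbp6 at 0.09 and 0.07, and Hmox1, heme oxygenase, at 0.09 and 0.30. Serpinh1, the collagen chaperone HSP47, was at -0.18 and -0.32. Of 3 RNA-binding proteins that respond to temperature, Srsf5 alone was called with oxidized casein MR (0.26, adjusted p = 0.00538), beside 10.6% of all genes higher. Cirbp, known as cold-inducible, was at -0.48 (adjusted p = 0.0561) and -0.42 (adjusted p = 0.0711). With elemental MR edgeR called 0 of the 3, while 1 had an unadjusted p under 0.05 and DESeq2 and limma-voom called 1 each. Rbm3, also cold-inducible, was at 0.03 (adjusted p = 0.959) and -0.40 (adjusted p = 0.228).

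**Figure D4:**
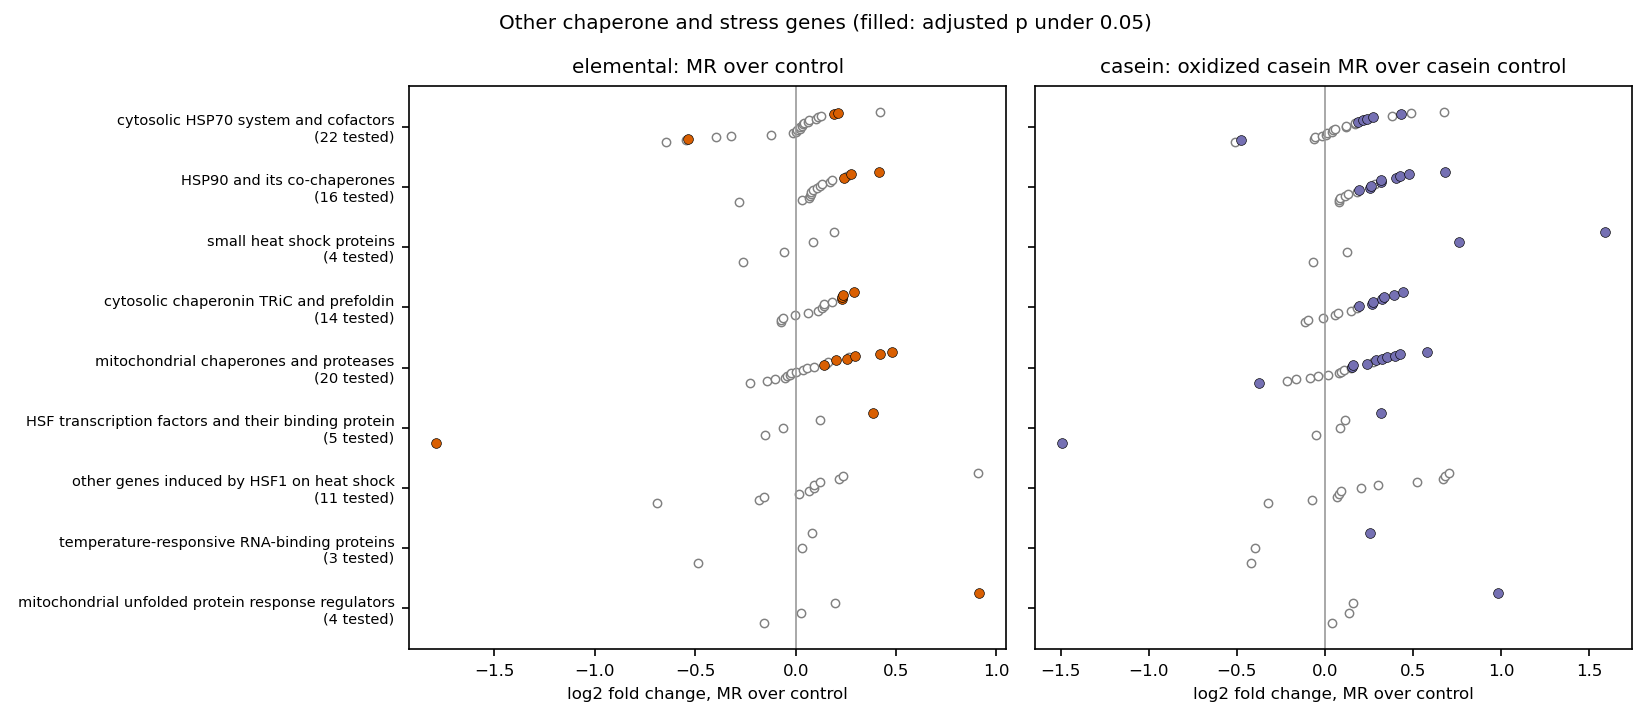
Log2 fold changes of the tested genes of each chaperone list (points, 1 per gene, filled where the adjusted p was under 0.05), for elemental MR and oxidized casein MR each against its control. The lists of HSP90 co-chaperones, TRiC and mitochondrial chaperones lie mostly right of 0, and the points of other HSF1-induced genes lie on both sides.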

How the data were processed

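RNA-seq of 24 mouse liver libraries was analysed from the read counts per Ensembl gene and library that the authors deposited. The deposited normalized table holds a signal, checked to equal the counts divided by 1 size factor per library (0.745 to 1.32), and was used only for gene symbols. The sources used here do not name the aligner, counting tool, genome build or strand. Counts were fitted in edgeR 4.0.16 (R 4.3.3) over all 24 libraries with a mean per group, after filterByExpr (13441 of 15161 genes, 99.93% of reads) and TMM scaling. Calls used the quasi-likelihood test at an adjusted p under 0.05, and each SE was the log2 fold change divided by the square root of F. CPM are on the TMM-scaled library size, and log2 CPM for correlations had a prior count of 2, with 100000 permutations within groups. Lengths for CPM per kb came from GENCODE M21 and promoters from RefSeq. The code was tested on simulated counts. No sample was left out, 0 pairs of libraries were identical, and 0 per-sample columns were unused. Depth was 13.5 to 20.8 M reads per library, and intervals do not cover errors of read assignment.

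The members and gene lists were chosen with earlier results of these data known. Named were all 10 members, the 3 genes with the smallest p of each list in each MR comparison (others called could be added), the 3 genes most like each member, and Alb and Acta1. The result of 1 gene that this rule names is not reported here. Bag3, Hsf1, Hmox1 and the elemental MR value of Stip1 were added for their known roles, after their values were seen. Other settings tried were scaling by DESeq2 size factors or the upper quartile, no filter or a stricter one (1 CPM throughout a group), DESeq2 1.42.0 (Wald test), limma-voom with quality weights (limma 3.58.1), a robust prior, 1 surrogate variable (sva 3.50.0), fitting only the groups compared, a threshold of 0.01, and leaving out each library.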

Additional observations from a re-analysis of the deposited data

Results flagged for a closer look

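Of the 10 genes, Hspb1 was singled out because its change on the oxidized casein MR diet, relative to casein control, differed from that on the elemental MR diet, relative to elemental control. Restriction and oxidation of the casein cannot be told apart in that difference. Its log2 fold change was 2.01 with oxidized casein MR and 0.82 with elemental MR, and the difference of 1.19 passed the test of the interaction in edgeR (adjusted p = 0.00835). The difference stayed between 1.08 and 1.31 when each of the 24 libraries was left out in turn (adjusted p of at most 0.0206). All 6 oxidized casein MR libraries were above all 6 elemental MR libraries. None of the 40 combinations of gene and diet group held a library that stood apart from its group by Dixon's test, which marks about 1 in 20 by chance.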

How the results depend on the processing

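Over 34 alternatives, 1673 of the 1690 recomputed member values kept their direction and side of the threshold, 8 lost the call, 9 gained it and 0 reversed. The 8 losses were those of Dnaja1 with elemental MR, at an adjusted p under 0.01 and without 7 single libraries (-0.32 to -0.23 over all 24 such fits). Hspa1b with elemental MR was gained with 1 surrogate variable (0.81, adjusted p = 0.0478), in a fit of the compared groups alone (0.84, adjusted p = 0.0429) and without 5 single libraries (up to 1.10, adjusted p = 0.0128, without E_C_3417). Without C_MR_3431, Hsp90aa1 was gained in the difference of the MR effects (0.57) and Hspe1 between MR diets (0.21). Called members numbered 6 to 8 with elemental MR, 9 with oxidized casein MR, 1 to 2 in the difference (2 without C_MR_3431), 0 between controls and 2 to 3 between MR diets when each library was left out. For the chaperone lists these ranges were 15 to 21, 32 to 38, 0 to 3, 0 to 2 and 2 to 7, so the single call of Cct3 in the difference is unstable. In that difference 2 list genes were called under upper quartile scaling, under DESeq2's Wald test and under limma-voom, and 0 at an adjusted p under 0.01. Between controls 1 was called by DESeq2's Wald test and 1 with a robust prior. At an adjusted p under 0.01, 12 were called with elemental MR and 1 between MR diets. Over all genes, edgeR called 14 between controls, DESeq2 73 and limma-voom 3. Pairs of members that varied together within groups numbered 2 in the report, 3 with DESeq2 size factors, 3 without the 2 farthest libraries, 2 with a prior count of 0.5 and 2 without C_MR_3438. The causes were not tested. No paired analysis was possible because the groups share no replicate numbers. The lowest member count in any library was 76 reads.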
